A study of Homo sapiens with 6 samples.

Results

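A set of 10 genes that act in meiosis was followed in AID-DIvA cells with and without ARID1A. The genes were SYCE1, SYCE2, SYCE3, SYCP2, SYCP3, HORMAD1, REC8, STAG3, DMC1 and MEI1, found by name in each of the 6 deposited tables, 10 of 57820 rows. The set was picked around SYCE1, which was selected on its low level in ARID1A-KO in these same samples, so the values of the 10 genes in this contrast are given as a description, without a test. The study measured RNA by RNA-seq in untreated AID-DIvA cells, a line made from the osteosarcoma line U2OS by adding an AsiSI nuclease that can be switched on, and no sample here had it switched on. The 3 WT samples and the 3 ARID1A-KO samples were numbered 3, 4 and 5 in each genotype and have the same line and no treatment in the labels. ARID1A, a subunit of the SWI/SNF chromatin remodeler, had been disrupted in the ARID1A-KO cells by CRISPR-Cas9. Separate guides against its first exon were designed, and the sources used here do not state whether they were combined. Which ARID1A-KO clone was sequenced is not given in the sources used here, so the 3 ARID1A-KO samples may be repeats of 1 clone, and the effect of the genotype and that of a clone cannot be told apart. The labels give polyA RNA as the molecule, whereas the protocol names a total RNA library kit.

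In meiosis, homologous chromosomes break, pair, exchange strands and are held together before they separate. Cohesin rings that carry the meiotic subunits REC8 and STAG3 organise each chromosome along an axis, on which HORMAD1, SYCP2 and SYCP3 assemble. The synaptonemal complex then joins the axes, with SYCE1, SYCE2 and SYCE3 in its central element, while DMC1 exchanges strands at breaks whose formation needs MEI1. Germ cells are the usual site of expression, and somatic cells keep many of these genes silent, in part by the PRC1.6 complex, which holds E2F6, and by DNA methylation. Some of them, such as HORMAD1 and SYCE1, are also transcribed in tumours.

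Promoter sequences were taken from RefSeq on GRCh38.p14, from 250 bases before to 50 bases after each transcription start, to show what the starts of the genes hold. Entries were present for 9 of the 10 genes, and SYCE1 and STAG3 had more than 1 entry. The SYCE1 sequences are printed because SYCE1 carried the largest difference of the set, and that of SYCP2 because it differed in the opposite direction. Capitals mark TCCCGC, the core of E2F sites, or its reverse complement GCGGGA. All 3 lie on the minus strand and are written 5′ to 3′, at chr10:133568242-133568541 for the first start of SYCE1, chr10:133565534-133565833 for the second start and chr20:59933588-59933887 for SYCP2.
SYCE1, first start: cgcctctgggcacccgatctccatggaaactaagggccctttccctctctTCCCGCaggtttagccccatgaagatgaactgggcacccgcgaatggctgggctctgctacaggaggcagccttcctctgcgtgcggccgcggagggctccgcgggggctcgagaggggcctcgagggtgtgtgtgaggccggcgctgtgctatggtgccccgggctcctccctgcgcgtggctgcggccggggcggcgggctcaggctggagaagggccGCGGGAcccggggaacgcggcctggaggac
SYCE1, second start: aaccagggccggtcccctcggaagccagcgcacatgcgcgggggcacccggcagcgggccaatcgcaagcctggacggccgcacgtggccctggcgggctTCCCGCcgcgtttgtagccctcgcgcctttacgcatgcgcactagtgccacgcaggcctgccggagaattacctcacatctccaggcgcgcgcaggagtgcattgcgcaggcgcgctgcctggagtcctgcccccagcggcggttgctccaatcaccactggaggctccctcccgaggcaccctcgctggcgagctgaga
SYCP2: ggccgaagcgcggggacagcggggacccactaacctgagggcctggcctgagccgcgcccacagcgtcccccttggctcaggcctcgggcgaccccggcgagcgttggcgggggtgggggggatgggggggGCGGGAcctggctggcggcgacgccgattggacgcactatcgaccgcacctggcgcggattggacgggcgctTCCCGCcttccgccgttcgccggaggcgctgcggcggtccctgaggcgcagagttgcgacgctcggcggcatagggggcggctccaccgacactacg
TCCCGC, searched on both strands, was present in the promoters of 7 of the 9 genes and was not in the windows of SYCE3 and DMC1. It was present in 26.9% of all 35116 promoters in the RefSeq table. The promoters of the set held 17 to 41 CG dinucleotides each, against a median of 14 over all promoters, and among the 16157 promoters with at least 17 the share with TCCCGC was 48.7%. The E-box CACGTG, a palindrome that can share at most 1 base with TCCCGC, was present for SYCE1 (second start) and STAG3, and in 7.26% of all promoters. SYCE1 and SYCP2 both held TCCCGC, and the part of this motif in their levels was not tested.

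Each table gave whole-number counts per gene in 3 ways, from read pairs of the strand expected for the library (reverse-stranded), from the opposite strand (forward) and without regard to strand. The reverse-stranded counts, used as the gene counts here, summed to between 54512105 and 84088708 per sample, and forward counts came to 5.83% to 6.15% of them. Counts were also scaled to library size as CPM. ARID1A fell from 173 ± 6.67 CPM in WT to 25.9 ± 1.38 CPM in ARID1A-KO (SD, n = 3, log2 fold change -2.74, SE 0.07, adjusted p = 9.66e-08, edgeR's quasi-likelihood test, Benjamini-Hochberg adjusted). Across all genes, 19599 passed the filter on low counts and were tested, and 36.2% were called at an adjusted p under 0.05, 17.8% higher and 18.4% lower in ARID1A-KO. The CPM of 49.5% of the tested genes did not overlap between the genotypes. The median log2 fold change of all tested genes was 0.007. Of 10 germ cell markers, 3 were tested (log2 fold changes -1.16 to 0.31). DAZL, TNP1, PRM1 and PRM2 had no reverse-stranded count in any sample. The summed level of the 10 markers was 1.47 to 1.96 TPM, a level scaled for transcript length and library size, in WT and 1.08 to 1.59 TPM in ARID1A-KO. Of 8 osteoblast lineage markers, summing to 639 to 705 TPM in WT and 375 to 411 TPM in ARID1A-KO, 5 were tested and 3 of them, ALPL, SPARC and COL1A1, were lower in ARID1A-KO in edgeR. RUNX2 (log2 fold change -0.03) and COL1A2 (-0.46) were tested and not called. SP7, BGLAP and IBSP had too few counts to be tested. The part of these differences in the results on meiotic genes was not tested.

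SYCE1 (ENSG00000171772.11), a structural protein of the synaptonemal complex central element, had 744, 974 and 769 reverse-stranded counts in the WT samples and 2, 5 and 9 in the ARID1A-KO samples. Every WT sample was far above every ARID1A-KO sample, and the few counts left in ARID1A-KO were spread over all 3 samples. The level was 12.7 ± 1.36 CPM in WT and 0.0742 ± 0.0392 CPM in ARID1A-KO (SD, n = 3), 99.4% lower. The log2 fold change was -7.36 (SE 0.25), the 6th most negative of the 19599 tested genes. With 16 counts in ARID1A-KO, this SE, derived from the test statistic, is only approximate. From the summed counts, 2487 in WT and 16 in ARID1A-KO, the level was 167.5 times as high in WT, with an exact 95% interval of 102.9 to 293.4 that covers counting error only. As these are bulk samples, fewer cells with SYCE1 RNA and less of it per cell cannot be told apart. On the TPM scale, SYCE1 ranged from 12.6 to 15.3 TPM in WT and from 0.0316 to 0.118 TPM in ARID1A-KO.

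SYCE2, which extends the central element along the chromosome, differed little between genotypes. It had 94, 89 and 63 reverse-stranded counts in WT and 82, 70 and 139 in ARID1A-KO. The groups overlapped in CPM, and the log2 fold change was 0.12 (SE 0.18). SYCE3, a small protein that starts the central element, had 0, 1 and 2 counts in WT and 5, 5 and 4 in ARID1A-KO. Its 3 ARID1A-KO samples were above the 3 WT samples, by only a few reads each. From 3 counts in WT and 14 in ARID1A-KO the ratio was 4.33, with an exact 95% interval of 1.21 to 23.5 for counting error. SYCE3 had too few counts to be tested.

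SYCP2, which lines the chromosome axis as part of the lateral element, had 47, 30 and 29 counts in WT and 94, 56 and 125 in ARID1A-KO. Every ARID1A-KO sample was above every WT sample, at 0.542 ± 0.146 CPM in WT and 1.27 ± 0.221 CPM in ARID1A-KO (SD, n = 3). The log2 fold change was 1.24 (SE 0.24), and it lay between 1.08 and 1.47 when each sample was left out in turn. SYCP3, the partner of SYCP2 in the lateral element, had 7, 5 and 3 counts in WT and 5, 3 and 8 in ARID1A-KO, which overlapped, and it was not tested. HORMAD1, an axis protein that promotes break formation and is also known as a cancer testis antigen, had 367, 460 and 298 counts in WT and 418, 321 and 540 in ARID1A-KO. The groups overlapped at 5.70 ± 0.702 CPM and 6.04 ± 0.171 CPM (SD, n = 3), with a log2 fold change of 0.08 (SE 0.12).

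REC8, the meiotic kleisin of cohesin, had 110, 130 and 99 counts in WT and 129, 106 and 324 in ARID1A-KO. In CPM the WT samples lay at 1.65, 1.83 and 1.70 and the ARID1A-KO samples at 1.90, 1.93 and 3.68, so the groups did not overlap, but in TPM the highest WT sample (1.558 TPM) was level with the lowest ARID1A-KO sample (1.556 TPM), and most of the difference came from ARID1A-KO replicate 5. The log2 fold change was 0.55 (SE 0.26) with all samples and 0.15 without that replicate. STAG3, the meiotic stromal antigen of cohesin, had 22, 36 and 17 counts in WT and 41, 19 and 46 in ARID1A-KO. These overlapped in CPM, with a log2 fold change of 0.38 (SE 0.30). The tables also hold 6 rows named as STAG3-like copies, so the assignment of reads to STAG3 is uncertain.

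DMC1, the meiotic recombinase, had 30, 9 and 19 counts in WT and 29, 11 and 29 in ARID1A-KO. The samples of each genotype spread over the same range, and the log2 fold change was 0.12 (SE 0.44). MEI1, needed for meiotic breaks, had 8, 13 and 4 counts in WT and 1, 6 and 8 in ARID1A-KO, which overlapped, and it was not tested. Of the 10 genes, 7 passed the filter on low counts. At an adjusted p under 0.05 in edgeR, 1 of the 7 was called lower (SYCE1, where 18.4% of all genes were) and 1 higher (SYCP2, where 17.8% were), and nothing is read from these counts because the set was chosen on this contrast. The median log2 fold change of the 7 was 0.12, and 6 of the 7 values were positive. CPM did not overlap for 4 of the 10 genes, SYCE1, SYCE3, SYCP2 and REC8, of which 3 were among the 7 tested, beside 49.5% of all tested genes.

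Levels between genes were compared in TPM of the reverse-stranded counts. In WT the mean order was SYCE1 (14.2 TPM), HORMAD1 (7.78 TPM), SYCE2 (2.81 TPM), REC8 (1.48 TPM), DMC1 (0.328 TPM), SYCP2 (0.276 TPM), STAG3 (0.144 TPM), SYCE3 (0.111 TPM), MEI1 (0.0752 TPM) and SYCP3 (0.0650 TPM). SYCE1 was thus the most abundant of the 10 in WT, and the first 4 genes were each separated from the next by samples that did not overlap. DMC1 overlapped with SYCP2, and from STAG3 on each gene overlapped with the next. In ARID1A-KO, HORMAD1 was first at 8.21 TPM, followed by SYCE2 (3.04 TPM), REC8 (2.15 TPM), SYCP2 (0.644 TPM), SYCE3 (0.479 TPM), DMC1 (0.343 TPM) and STAG3 (0.186 TPM). SYCE1 was eighth in this order at 0.0837 TPM, and its samples overlapped with those of SYCP3 (0.0625 TPM). MEI1 was last at 0.0438 TPM.

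**Figure D1:**
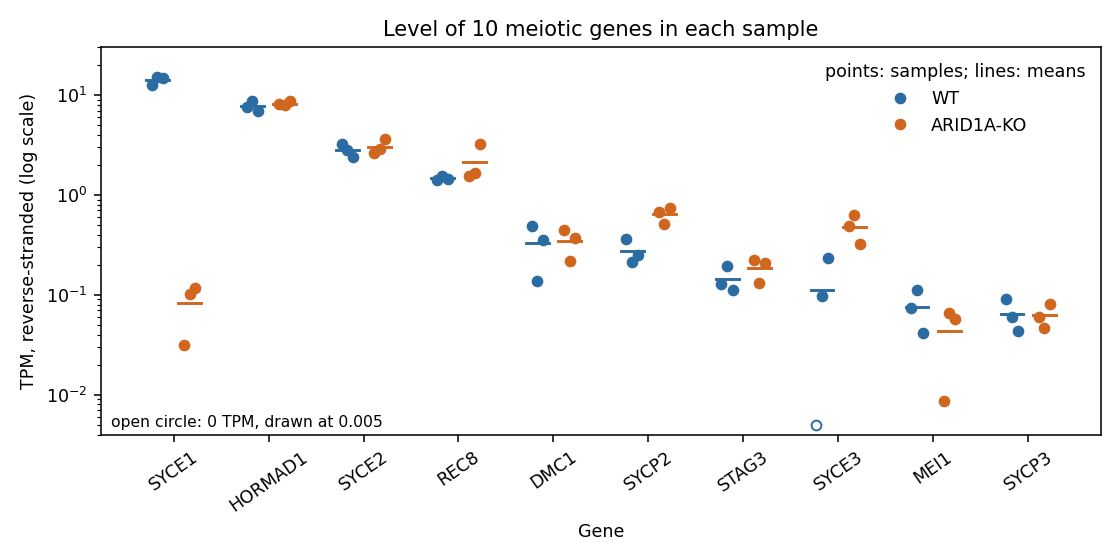
Level of each of the 10 genes in TPM on a log scale, with 1 point per sample (blue WT, orange ARID1A-KO) and lines at the means of 3 samples. SYCE1 is at a mean of 14.2 TPM in WT and 0.0837 TPM in ARID1A-KO, SYCP2 and SYCE3 are higher in every ARID1A-KO sample, and the samples of the remaining genes overlap between the genotypes. The open circle is a sample at 0.

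The strand of counting changed the values of several of the genes. SYCE1 lies on the minus strand at chr10:135367404-135382876 (GRCh37), and CYP2E1 (ENSG00000130649.5), a cytochrome that oxidises small molecules such as ethanol, lies on the plus strand at chr10:135333910-135374724. In the GENCODE annotation for GRCh37, exon 6 of a CYP2E1 transcript spans chr10:135368165-135374724, 6560 bp, and contains exons 2 to 12 of the 13 exons of a SYCE1 transcript. Of the 4016 exonic bases of SYCE1 in that annotation, 2277 (56.7%) lie under exons of the opposite strand. This annotation is not the one behind the counts, in which the exonic length of SYCE1 is 2934 bp. Without regard to strand, SYCE1 had 47, 55 and 31 counts in WT and 2, 1 and 7 in ARID1A-KO, 5.71% of its reverse-stranded counts in all. That share is mostly WT, with sums of 133 unstranded against 2487 reverse-stranded counts in WT and 10 against 16 in ARID1A-KO. The groups were still apart, but with the larger loss in WT the log2 fold change became -3.79. The forward counts of SYCE1 were at most 3 in any sample.

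The mirror of this appeared at CYP2E1. Its forward counts, from the strand of SYCE1, were 790, 1035 and 800 in WT and 2, 10 and 5 in ARID1A-KO, close to the reverse-stranded counts of SYCE1 in each WT sample. On its own strand CYP2E1 had 17, 12 and 9 counts in WT and 9, 6 and 13 in ARID1A-KO. The low CYP2E1 level thus overlapped between the genotypes on its own strand, while its unstranded counts of 135, 144 and 82 in WT were above those of 11, 14 and 16 in ARID1A-KO. A row for SPRN, which also covers SYCE1 on the same strand, had at most 2 reverse-stranded counts in any sample. Reads shared with that row cannot be separated by strand.

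SYCP3 lies on the opposite strand to CHPT1, an enzyme of phosphatidylcholine synthesis, which had 1825 to 2341 reverse-stranded counts in WT and 2082 to 3115 in ARID1A-KO. The forward counts of SYCP3, 195 to 299 in WT and 271 to 358 in ARID1A-KO, were far above its own reverse-stranded counts. STAG3 lies over a row named GATS on the opposite strand (ENSG00000239521.3), with 197 to 241 reverse-stranded counts in WT and 143 to 216 in ARID1A-KO. Its forward counts were 335, 316 and 253 in WT and 200, 169 and 326 in ARID1A-KO. Unstranded counting gave STAG3 268, 273 and 214 counts in WT and 204, 153 and 305 in ARID1A-KO, several times the reverse-stranded numbers. The sign of its log2 fold change then turned from 0.38 to -0.31, so that the STAG3 value depends on the strand setting.

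SYCE2, opposite GCDH, had forward counts at 83.8% of its reverse-stranded counts, and unstranded counting left its total at 102% of them. REC8, which shares 39 bases with IPO4, had forward counts at 62.5% and unstranded counts at 129% of the reverse-stranded ones. For HORMAD1, SYCP2, SYCE3 and DMC1 the unstranded sum was 100% to 102% of the reverse-stranded sum. These genes had no exonic base under an exon of the other strand. MEI1, also without such a base, came to 115% on few counts.

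**Figure D2:**
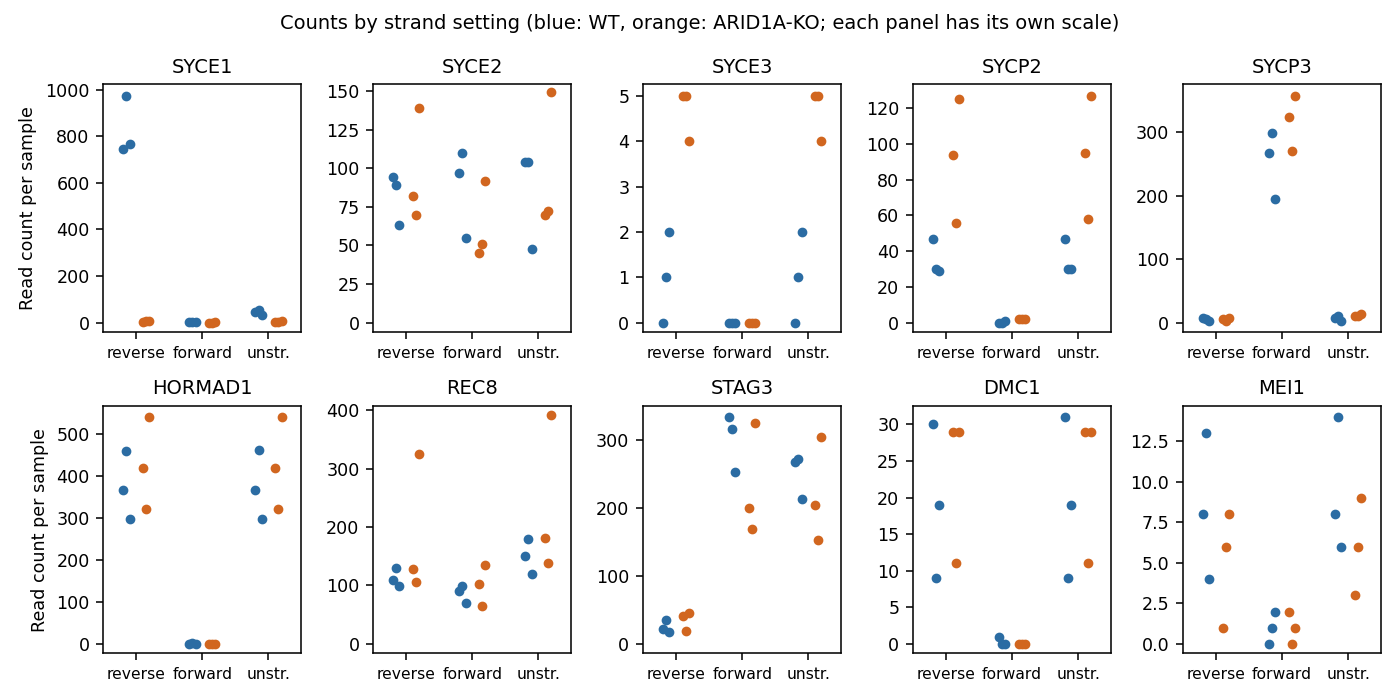
Counts of each of the 10 genes in every sample under the 3 strand settings (reverse-stranded, forward, unstranded), 1 panel per gene with its own scale, blue WT and orange ARID1A-KO. SYCE1 keeps 5.71% of its reads, summed over all samples, when strand is ignored. SYCP3 and STAG3 have most of theirs on the forward strand, and HORMAD1, SYCP2, SYCE3 and DMC1 are nearly the same in reverse-stranded and unstranded counts.

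The rows around SYCE1 were compared to show whether its neighbours moved with it. Of the rows within 100 kb other than those above, RP11-108K14.4 had 38, 37 and 24 reverse-stranded counts in WT and 20, 18 and 56 in ARID1A-KO, and AGGF1P2 had 12, 17 and 15 in WT and 10, 16 and 23 in ARID1A-KO. FRG2B had at most 3 in any sample and AL161645.2, OR7M1P, RARRES2P2, AL161645.1 and OR6L1P at most 2. No row in this window other than SYCE1 had more than 56 reverse-stranded counts in a sample. The nearest called gene was ECHS1, a mitochondrial enzyme of fatty acid oxidation 180211 bp away, which fell from 123 ± 7.42 to 74.95 ± 1.94 CPM (SD, n = 3, log2 fold change -0.71, SE 0.06, adjusted p = 4.45e-05, edgeR's quasi-likelihood test, Benjamini-Hochberg adjusted). TUBGCP2, a component of the gamma-tubulin complex 241563 bp away, fell too (log2 fold change -0.67, SE 0.07, adjusted p = 8.32e-05). ZNF511 (log2 fold change -0.57), RP11-122K13.12 (-0.62) and ADAM8 (-0.81), also among the called genes nearest to SYCE1, were lower too by the same test. Of the next called genes, TTC40 (0.64) and C10orf91 (1.18) were higher and INPP5A (-0.35) was lower. PAOX (-0.01), MTG1 (-0.02), RP11-108K14.4 (-0.22), CYP2E1 (-0.55) and MIR3944 (0.975), with midpoints between those of ECHS1 and SYCE1, were not called. SYCE1 was selected for its low level in ARID1A-KO, so the smaller size of each of these differences is not read as a result.

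Within 5 Mb of SYCE1, 33 other genes were tested. Their log2 fold changes ran from -0.92 to 1.42 with a median of -0.02, and 6 were called higher and 8 lower, beside 17.8% and 18.4% of all genes tested. SYCP2 was called higher among 94 tested neighbours with a median of 0.04, of which 17 were called higher and 8 lower. Neighbours of SYCE2 had a median of -0.32, with 114 of 240 called lower and 17 called higher, while SYCE2 itself was at 0.12. Neighbours of REC8 had a median of 0.29, with 56 of 129 called higher and 6 called lower. For SYCE3, SYCP3, HORMAD1, STAG3, DMC1 and MEI1 the medians of the neighbours lay between -0.06 and 0.10.

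**Figure D3:**
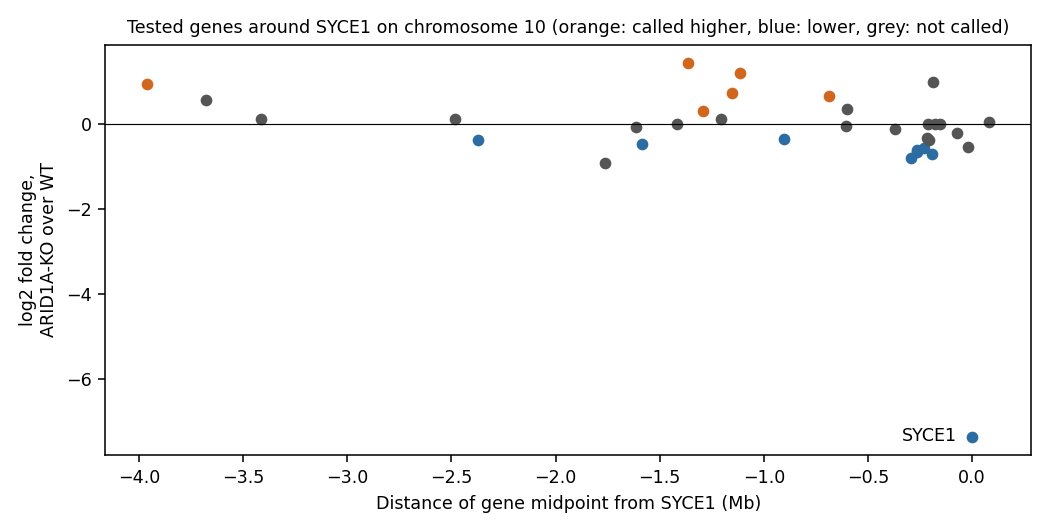
Log2 fold change (ARID1A-KO over WT) of SYCE1 and of the 33 other tested genes within 5 Mb of it on chromosome 10, against the distance of the gene midpoint from that of SYCE1 in Mb, with genes called higher in orange, called lower in blue and the rest in grey. SYCE1, selected on its low level in ARID1A-KO, is at -7.36, and its neighbours lie between -0.92 and 1.42.

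Genes whose log2 CPM over the 6 samples was most like that of SYCE1 were ranked by the root mean square difference after centring on the WT mean. The closest were AC009299.4 (0.47), RP11-89M22.3 (0.73), KRT75 (0.82), MFAP5 (1.0) and C6orf99 (1.2), none of them on chromosome 10. AC009299.4 had 298, 197 and 215 counts in WT and 0 in each ARID1A-KO sample. RP11-89M22.3 had 690, 518 and 612 counts in WT and 7, 3 and 9 in ARID1A-KO. C6orf99 had 321, 370 and 370 counts in WT and 6, 4 and 13 in ARID1A-KO. KRT75, a keratin, had more counts than SYCE1 in every WT sample, with 6837, 16077 and 8576. MFAP5, a microfibril protein, had 1659, 727 and 1503, fewer than SYCE1 in WT replicate 4. Ranking by likeness to SYCE1 selects genes that are high in every WT sample and low in every ARID1A-KO sample, as both were.

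Other genes of meiosis were listed by function, with earlier results of these data known, and 42 of 42 were found in the tables. Of these, 22 passed the filter on low counts, and 3 were called higher and 6 lower in ARID1A-KO (40.9%, beside 36.2% of all genes tested). Among the higher genes, SPATA22 had to differ, since it passed the filter only through the genotype where it is high. Their median log2 fold change was 0.15, beside 0.007 over all tested genes. By role, 1 of 5 tested genes of break formation was higher and 1 lower, 1 of 6 of strand exchange was higher and 2 lower, 1 of 6 of crossover formation was higher and 1 lower, and 2 of 3 of meiotic entry and checkpoint were lower. The 1 tested gene of the synaptonemal complex and axis, SIX6OS1 (log2 fold change 0.25, SE 0.11), and the 1 of meiotic cohesin, RAD21L1 (0.45, SE 0.31), were not called. Nothing is read from these counts by role. The higher gene of strand exchange was SPATA22. ZCWPW1, the lower gene of break formation, lost its call in every fit that left out 1 sample.

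SPATA22, which works with MEIOB on single-stranded DNA in meiotic recombination, had 0, 1 and 0 counts in WT and 21, 14 and 35 in ARID1A-KO. It was at or near 0 in every WT sample and higher in every ARID1A-KO sample. The summed counts, 1 in WT and 70 in ARID1A-KO, gave a ratio of 65.0 with an exact 95% interval of 11.3 to 2603 for counting error. SPATA22 passed the filter on low counts only through ARID1A-KO, so its call is not read as a test, and its fitted log2 fold change of 5.56 depends on the prior count. CCNB1IP1, a ubiquitin ligase of crossover sites, rose from 27.7 ± 3.17 to 49.9 ± 6.41 CPM (SD, n = 3, log2 fold change 0.85, SE 0.11, adjusted p = 0.0004, edgeR's quasi-likelihood test, Benjamini-Hochberg adjusted). IHO1, a partner of the break machinery named CCDC36 in the tables, rose from 3.09 ± 0.188 to 4.40 ± 0.352 CPM (log2 fold change 0.51, SE 0.13, adjusted p = 0.0132).

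MND1, a partner of DMC1 in strand exchange, had 1042, 1014 and 882 counts in WT and 454, 367 and 618 in ARID1A-KO. All 3 ARID1A-KO samples were lower, from 15.02 ± 0.677 to 6.79 ± 0.201 CPM (SD, n = 3, log2 fold change -1.14, SE 0.09, adjusted p = 1.99e-05, edgeR's quasi-likelihood test, Benjamini-Hochberg adjusted). PSMC3IP, which forms a heterodimer with MND1, was at 59.7 TPM in WT and 67.0 TPM in ARID1A-KO and was not called (log2 fold change 0.17, SE 0.09). HSF2BP, a partner of BRCA2 in meiotic recombination, fell from 3.04 ± 0.304 to 1.30 ± 0.300 CPM (log2 fold change -1.21, SE 0.19, adjusted p = 0.0012). MSH4, which stabilises crossover intermediates, fell from 1.55 ± 0.623 to 0.595 ± 0.213 CPM (log2 fold change -1.35, SE 0.33, adjusted p = 0.0109). MSH5, which pairs with MSH4, was not called (log2 fold change 0.14, SE 0.20).

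ZCWPW1, a reader of the histone marks set by PRDM9 (log2 fold change -0.35, SE 0.12), TRIP13, an ATPase that remodels HORMA proteins (-0.20, SE 0.06), and YTHDC2, a helicase needed for meiotic entry (-0.18, SE 0.05), were lower by small amounts. Their adjusted p values were 0.0475, 0.0306 and 0.0286 in edgeR's quasi-likelihood test, and ZCWPW1 lost its call in every fit that left out 1 sample, while TRIP13 and YTHDC2 each kept it in only 1 such fit. The most abundant of the 42 genes were TRIP13 (75.9 TPM), PSMC3IP (63.4 TPM), SHOC1 (34.7 TPM), CCNB1IP1 (34.5 TPM) and MND1 (23.6 TPM) by the mean over all 6 samples. The order differed between the genotypes, since MND1 (32.6 TPM) was above CCNB1IP1 (24.7 TPM) in WT, and in ARID1A-KO it (14.7 TPM) was below CCNB1IP1 (44.2 TPM) and YTHDC2 (17.8 TPM). SHOC1, a crossover factor, was not called with all 6 samples, though some alternatives called it lower, and it spread widely, with 8452, 3249 and 4739 counts in WT and 2300, 1793 and 6098 in ARID1A-KO.

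**Figure D4:**
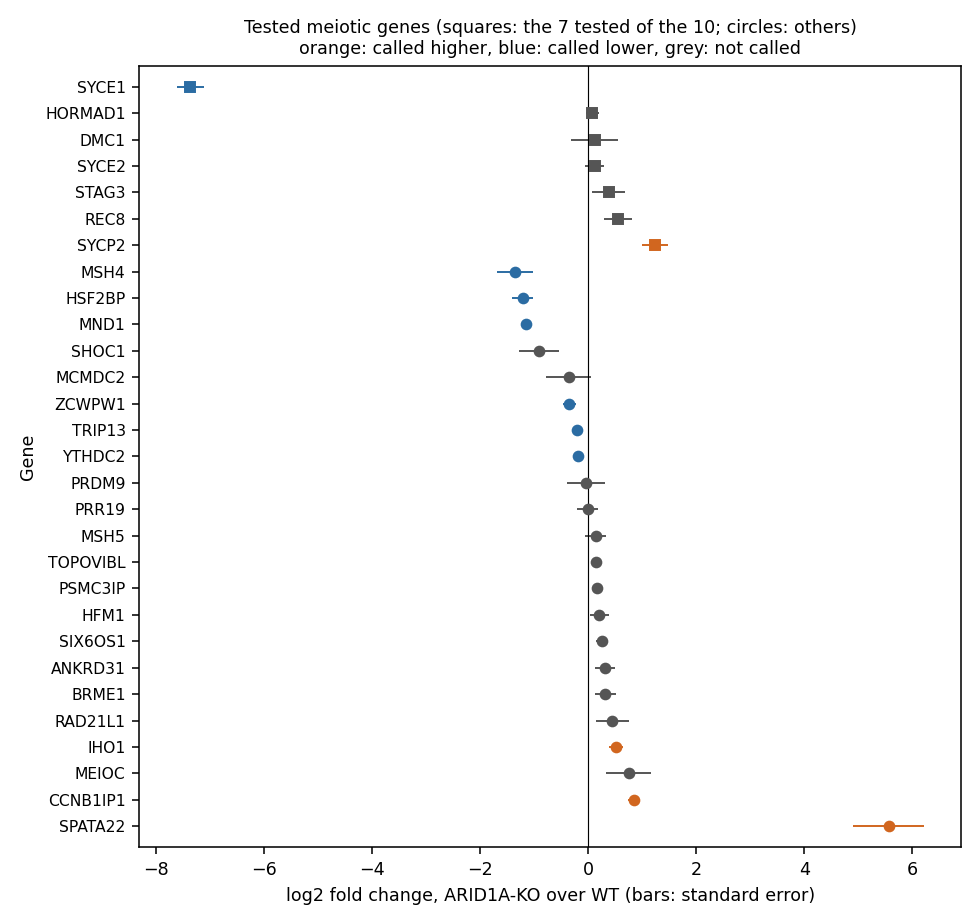
Log2 fold change (ARID1A-KO over WT) with its standard error for the 7 tested genes of the set of 10 (squares) and the 22 tested genes among the other meiotic genes (circles), orange where called higher, blue where called lower and grey where not called. SYCE1 is at -7.36 and SPATA22 at 5.56, and the other values lie between -1.35 and 1.24. SYCE1 was selected on this contrast, and SPATA22 passed the filter on low counts only through ARID1A-KO. Standard errors were derived from the test statistic and are approximate at low counts.

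Of the 20 other meiotic genes below the count filter, 2 had no reverse-stranded count in any sample and 14 overlapped between the genotypes. In 3 every ARID1A-KO sample was above every WT sample in CPM (MAJIN, TERB2 and MEIOB), and in 1 every ARID1A-KO sample was below (HORMAD2, with 1, 2 and 1 counts in WT and 0 in each ARID1A-KO sample). MAJIN and TERB2, which with TERB1 tether meiotic telomeres to the nuclear envelope, had 1, 1 and 0 counts and 0, 0 and 0 counts in WT. In ARID1A-KO they had 10, 2 and 11 counts and 2, 8 and 8 counts. MAJIN was 10.7 times as high in ARID1A-KO (exact 95% interval 2.64 to 93.4, counting error). Its forward counts were 64% of its reverse-stranded counts. Without regard to strand it had 4, 6 and 0 counts in WT and 12, 4 and 15 in ARID1A-KO, which overlapped. TERB2 was 5.57-fold higher if a floor of 3 counts is set for the WT group, a value that leaves out counting error. TERB1 had 12, 6 and 2 counts in WT and 4, 5 and 12 in ARID1A-KO, which overlapped. MEIOB, the partner of SPATA22, had 1, 0 and 1 counts in WT and 7, 7 and 13 in ARID1A-KO, a ratio of 12.5 (exact 95% interval 3.15 to 109), but its forward counts were 341% of its reverse-stranded counts. These genes were picked out after their values were seen, and the filter left them without a test.

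**Figure D5:**
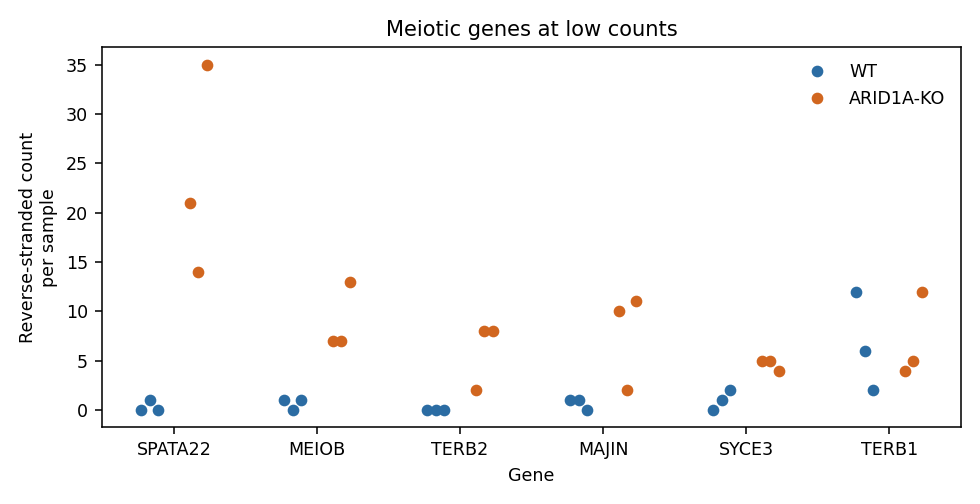
Reverse-stranded counts per sample of SPATA22, MEIOB, TERB2, MAJIN, SYCE3 and TERB1 (blue WT, orange ARID1A-KO). The 3 WT samples of the first 5 genes hold 0 to 2 reads each and the ARID1A-KO samples hold 2 to 35, while TERB1 overlaps between the genotypes.

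Mitotic counterparts of the cohesin genes of the set were far more abundant. RAD21, the kleisin in place of REC8, was at 225 TPM in WT and 201 TPM in ARID1A-KO. STAG1 and STAG2, in place of STAG3, were at 38.96 and 33.7 TPM in WT and 24.7 and 31.6 TPM in ARID1A-KO. Of these genes and SMC1A and SMC3, the cohesin ring ATPases, 5 in all, beside 36.2% called of all genes tested, SMC3 rose (log2 fold change 0.67, SE 0.09, adjusted p = 0.000597), and STAG1 (-0.65, SE 0.10, adjusted p = 0.000786) and SMC1A (-0.32, SE 0.06, adjusted p = 0.00245) fell in edgeR's quasi-likelihood test. RAD21 (-0.16) and STAG2 (-0.08) were not called.

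Of 8 genes known to repress germline genes, 3 were called higher and 1 lower, beside 17.8% higher and 18.4% lower of all genes tested. Of PRC1.6, a polycomb complex, PCGF6 (log2 fold change 0.54, SE 0.07, adjusted p = 0.000494), MAX (0.38, SE 0.10, adjusted p = 0.0145) and L3MBTL2 (0.24, SE 0.07, adjusted p = 0.0331) rose in edgeR's quasi-likelihood test. E2F6 (0.03) and MGA (-0.05), which bind DNA for the complex, were not called. DNMT1, the maintenance DNA methyltransferase, fell (-0.43, SE 0.06, adjusted p = 0.000906), and DNMT3A (0.13) and DNMT3B (0.07), which methylate new sites, were not called. The part of these genes in the values of SYCE1 or SYCP2 was not tested.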

How the data were processed

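The authors aligned paired reads with STAR to GRCh37 (Roddy workflow). The deposited counts are whole numbers from featureCounts, not normalized, for 3 strand settings. The deposited TPM values of the reverse-stranded counts, scaled by the authors to the same sum in each sample, were used to compare levels between genes. Reverse-stranded counts of the 3 WT and 3 ARID1A-KO samples went through filterByExpr and TMM and were compared in edgeR 4.0.16 (quasi-likelihood test, genotype as the only term, Benjamini-Hochberg adjustment over 19599 genes, called under 0.05) in R 4.3.3. CPM used the TMM library sizes. Each SE was the absolute log2 fold change divided by the square root of the test statistic F. It is approximate for genes with few counts in a genotype. Count ratios were scaled by the TMM library sizes. Their intervals were computed in SciPy 1.17.1 under Python 3.11.15 and cover counting error only.

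The 10 genes and the gene lists were chosen with earlier results of these data known. Named were the 10 genes, genes overlapping them, rows within 100 kb of SYCE1 and the nearest called genes, called and the 5 most abundant other meiotic genes, the mitotic cohesin counterparts and all repressors, and the 5 genes most like SYCE1. MSH5, SIX6OS1, RAD21L1, PAOX, MTG1, MIR3944 and the genes below the filter were named after their values were seen. For the 3 untested genes of the set no fold from the fit is given. Current gene names were matched through the Ensembl identifiers where the tables held older ones. Exon overlaps came from a GENCODE annotation lifted to GRCh37 that is not the one used for counting, and promoters from RefSeq on GRCh38.p14. The study describes its RNA-seq replicates as independent experiments, and the labels do not say how the samples were grown. No pair of samples of a genotype agreed within sampling noise (chi-square per gene 6.94 to 29.81). Not every listed gene is reported here. The fit was tested on simulated data. Alternatives were unstranded counts, DESeq2 size factors and DESeq2 1.42.0, other filters, the replicate number as a block and each sample left out.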

Additional observations from a re-analysis of the deposited data

How the results depend on the processing

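The direction of SYCE1 follows from how it was chosen, so only its size is compared. Its log2 fold change of -7.36 moved to -3.79 with unstranded counts and lay between -7.75 and -6.99 when each sample was left out. The log2 ratio of its mean TPM was -7.41, and -6.28 or -3.81 with 0.1 or 1 TPM added. With at least 10 counts in every sample SYCE1 could not be tested, since ARID1A-KO is below this number, and 1 gene of the set (SYCP2) was called instead of 2. Without a filter REC8 was called as well. STAG3 turned from 0.38 to -0.31 with unstranded counts, and REC8 moved from 0.55 to 0.15 without ARID1A-KO replicate 5. Among the other meiotic genes, 6 were called higher without a filter, with MAJIN, TERB2 and MEIOB added to the main 3, and 2 to 5 when each sample was left out. IHO1 lost its call without ARID1A-KO replicate 4, and PSMC3IP and SIX6OS1 gained one without WT replicate 4. SHOC1 was called lower with WT replicate 4 or ARID1A-KO replicate 5 left out, with no filter and with the replicate block. Between 3 and 5 were called lower when each sample was left out, 3 without WT replicate 5, ARID1A-KO replicate 3 or ARID1A-KO replicate 4, with MND1, HSF2BP and MSH4 in all of these fits. DESeq2 called the same genes of both lists.

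Deviations of samples with the same replicate number in the 2 genotypes had correlations of -0.177, 0.268 and 0.18. Those of samples with different numbers ran from -0.42 to 0.295. As each genotype was centred on its own 3 samples, these values cannot decide whether the numbers pair the samples. Over all genes, 7477 were called with the replicate block and 7099 without it. With the replicate block, 2 genes of the set and 3 other meiotic genes higher were called, the same genes as without it, among them SYCE1 and SPATA22, whose calls follow from how they were chosen or filtered. Again 6 were called lower, with SHOC1 in place of ZCWPW1.

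With 3 samples a genotype, and 0 to 13 counts per sample for SYCE3, SYCP3 and MEI1, differences of these genes were not tested. Genotype and clone cannot be told apart.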
